A study of Homo sapiens with 4 samples.

Results

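Mitochondrial ribosomal protein genes are the nuclear genes that encode the protein subunits of the ribosome inside mitochondria, and 77 of the 19970 protein-coding genes were counted among them. They were taken by symbol, as protein-coding genes named MRPL or MRPS, for the large and the small subunit, with a number and at most 1 further letter, which gave 49 MRPL and 28 MRPS genes. The values came from chromatin immunoprecipitation with sequencing (ChIP-seq) of MHCC97L, an established human hepatocellular carcinoma line, labelled WT (unmodified) and grown untreated in DMEM with 10% serum at 37 °C under 5% CO2. Acetylation of histone H3 at lysine 27 (H3K27ac), its monomethylation at lysine 4 (H3K4me1) and its trimethylation at lysine 4 (H3K4me3) were each mapped in 1 library, and the input chromatin library was not analysed here. No group was treated and none was replicated, so every value below describes 1 library of 1 cell line, and no difference was tested. Of the genes used to check the label, HNF4A, a hepatocyte transcription factor, had boundary H3K4me3 and H3K27ac summits scoring 71.9 and 57.6. The epithelial keratin genes KRT8 and KRT18 had the same boundary scores, 107 and 93.1, which may come from the same summits. Inside KRT8 the best scores were 130.6 and 150.6. The hepatocyte genes ALB and APOA2, in contrast, had no summit. Of the genes of other cells, CD3D and COL1A1 had no summit. PTPRC had H3K27ac of 38.8 and H3K4me3 of 7.29 inside the gene and none at a boundary. PECAM1 scored 43.9 for boundary H3K27ac, and inside the gene its best H3K27ac and H3K4me3 summits scored 71.95 and 25.4.

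The mitochondrial ribosome translates the few membrane proteins of the respiratory chain and ATP synthase that are encoded in mitochondrial DNA. All of its proteins are made in the cytosol and imported, while its ribosomal RNAs are transcribed inside the organelle, so that nuclear and mitochondrial transcripts have to meet in 1 particle. Some of its proteins have counterparts in bacterial ribosomes and others are found only in mitochondrial ribosomes. At active genes, H3K4me3 marks the nucleosomes next to the transcription start, H3K27ac marks active promoters and enhancers, and H3K4me1 marks enhancers and the flanks of promoters.

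Of the motifs searched in the promoters of these genes, those with the widest gap in share from other promoters were the ones known to bind YY1 and ETS-family factors. RefSeq promoter sequences on GRCh38.p14, each with 250 bases before and 50 bases after a listed start, were matched for 69 of the 77 genes. Only the first listed start of each gene was searched. In a gene with several, the searched promoter need not be the one with H3K4me3. MRPL2, MRPL10, MRPL13, MRPL15, MRPL21, MRPL23, MRPL35 and MRPS28 were not among them. The motif AAGATGG, read on either strand and known for YY1, was found in 23 of the 69 promoters (33.3%), against 7.52% of the 9799 promoters of protein-coding genes with H3K4me3 at a listed start and 6.40% of all 15811 promoters. In 10 of the 69 (14.5%) it was followed by CGGC, against 2.08% of the H3K4me3-marked and 1.37% of all promoters. Those 10 sites, alike in these letters by the rule that picked them, are shown with their flanks in gene orientation. Capitals mark AAGATGG or its reverse complement.
MRPL22, chr5:154941098-154941122, plus strand: gggagggcgaAAGATGGcggcggca
MRPL36, chr5:1799855-1799881, minus strand: ccccccgccgCCATCTTccttcctggc
MRPL38, chr17:75904862-75904888, minus strand: ggccggagggAAGATGGcggcgccctg
MRPL46, chr15:88467364-88467390, minus strand: gggagaacgaAAGATGGcggcgcccgt
MRPL50, chr9:101398579-101398605, minus strand: gatctcatcgAAGATGGcggcgcgatc
MRPS10, chr6:42217836-42217862, minus strand: cgggaccggcAAGATGGcggcgcggac
MRPS18A, chr6:43687766-43687792, minus strand: taggtttttgAAGATGGcggccctcaa
MRPS18B, chr6:30617853-30617879, plus strand: ggcgtacgtcAAGATGGcggcgtctgt
MRPS24, chr7:43869482-43869508, minus strand: cgcttggcccAAGATGGcggcctccgt
MRPS30, chr5:44808950-44808976, plus strand: atcgcgggcaAAGATGGcggcggccag

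All 10 sites lay within 100 bases before the start or after it. Over all 24 matches to AAGATGG in the promoters of mitochondrial ribosomal protein genes, the median position of the first base was 9 bases downstream of the start, and 20 read in the direction of the gene against 4 on the other strand. Among those 10, MRPL36 was the exception to that direction, with its match 34 bases upstream of the start on the other strand. Of the 10 genes, 5 are named MRPL and 5 MRPS. A match is a description of letters, and binding by a factor was not measured. Positions and directions of matches, here and below, were not counted in other promoters.

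The core of the ETS motif, CCGGAAG on either strand, which the mitochondrial regulator GABPA is known to bind, was found in 29 of the 69 promoters (42.0%), against 20.2% of the H3K4me3-marked and 14.2% of all promoters. The median of its 39 matches began 22 bases upstream of the start, 33 of the 39 began no further than 100 bases upstream, and 18 read with the gene against 21 on the other strand, so ETS matches had no common direction as the AAGATGG matches did. At least 1 of AAGATGG and CCGGAAG was present in 43 of the 69 promoters (62.3%), against 25.9% of the H3K4me3-marked and 19.3% of all promoters, and both were present in 9 (13.0%), against 1.85% and 1.27%. Sites near the start of 5 genes with H3K4me3 scores above 80 are shown, with CCGGAAG or its reverse complement in capitals.
MRPL27, chr17:50373176-50373202, minus strand: cttttcgagaCCGGAAGtgagtgatcg
MRPL28, chr16:370515-370541, minus strand: ggcagatcggCTTCCGGttccggtggg
MRPL51, chr12:6493350-6493376, minus strand: ggcaggcggaCCGGAAGcactgaggcg
MRPL58, chr17:75012652-75012678, plus strand: gaagcgcccgCCGGAAGcagtcgcaag
MRPS23, chr17:57850042-57850068, minus strand: ggagcagccgCTTCCGGttccggtagc

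The other motifs had shares close to or below those of H3K4me3-marked promoters. The NRF1 motif, GCGCA, any base, then GCGC, which is known from genes of the respiratory chain, was found in 8 of 69 (11.6%), against 12.2% of the H3K4me3-marked and 8.58% of all promoters. The SP1 motif GGGCGG was found in 60.9%, against 71.8% and 58.5%, and the NF-Y motif CCAAT in 29.0%, against 36.8% and 36.3%. TATAAA was found in 2 promoters (2.90%), against 5.22% and 9.64%, and the E-box CACGTG in 6 (8.70%), against 10.3% and 8.87%. The ZNF143 motif, ACTACAA, any base, then TCC, was found in the 2 promoters of MRPL24 and MRPL50 (2.90%), against 2.39% and 1.59%. The CRE motif, TGACG followed by TCA, was found in none of the 69, against 3.19% and 2.59%. All motifs were searched on both strands and none of the matches was merged where motifs overlap. The promoters had a median GC content of 60.3%, against 65.7% in the H3K4me3-marked promoters and 62.7% in all, and base composition was not matched in these shares.

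**Figure D1:**
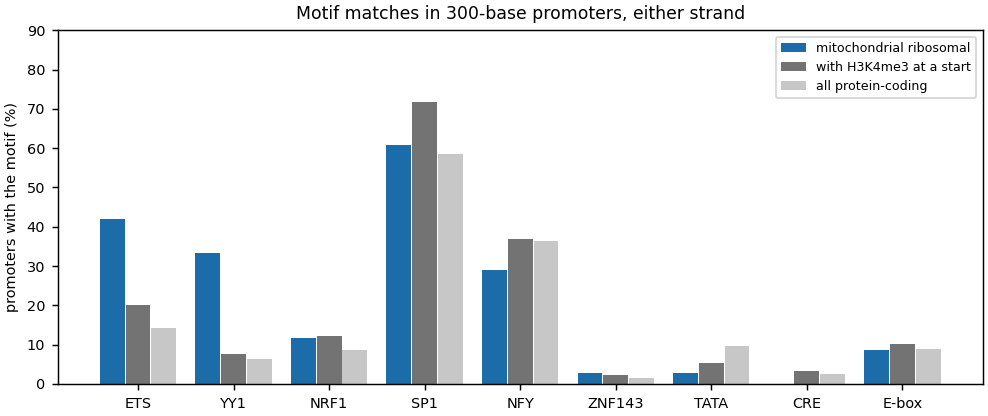
Share of promoters with at least 1 match to each motif, on either strand, in percent: mitochondrial ribosomal protein genes (69), protein-coding genes with H3K4me3 at a listed start (9799) and all protein-coding genes with a promoter sequence (15811). ETS stands at 42.0% and YY1 at 33.3% in the mitochondrial ribosomal genes, against 20.2% and 7.52% in the H3K4me3-marked genes, while the NRF1 shares are 11.6% and 12.2%.

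Nearly every mitochondrial ribosomal protein gene carried the pair of marks known from active promoters. A gene counted as marked when a peak summit lay within 1000 bp of either of its 2 annotated boundaries. H3K4me3 was at a boundary of 74 of the 77 genes (96.1%, 95% Wilson interval 89.2 to 98.7), against 56.8% of all protein-coding genes. H3K27ac was at a boundary of 76 of 77 (98.7%, 93.0 to 99.8), against 54.1%, and both marks were at the same boundary of 73 of 77 (94.8%, 87.4 to 98.0), against 47.4%. H3K4me1 was at a boundary of 8 of 77 (10.4%, 5.36 to 19.2), against 12.4%, a share near that of all genes. MRPL44 alone, 1 of 77, had none of the 3 marks at a boundary, against 35.2%. The intervals cover counting error only, genes that share a promoter are not independent, and the depth of sequencing is unknown.

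Counted over the whole gene with 1000 bp on either side, both marks were present in 76 of 77 genes (98.7%), against 61.2%; MRPL32 was the exception and had H3K27ac only. Counted at the 69 genes' listed starts, H3K4me3 was within 1000 bp in 67 (97.1%), against 62% of all genes with a listed start, and H3K27ac was in all 69, against 57.6%. Both were at the same start in 67, against 53.1%, and H3K4me1 was at the start of 1 gene, MRPL24 (1.45%), against 7.6%. The 2 genes without H3K4me3 at a listed start were MRPL32 and MRPL36.

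The genes named MRPL and MRPS were marked in like shares. The split is by symbol, and RefSeq's systematic names place the products of MRPS18A and MRPS30 in the large subunit. The pair of marks was at the same boundary of 46 of 49 MRPL and 27 of 28 MRPS genes. The median H3K4me3 score was 65.8 in MRPL and 67.2 in MRPS genes, and the median H3K27ac score was 30.8 and 30.1. RefSeq's systematic names divide the proteins into 26 universal ones, 18 shared with bacteria and 31 specific to mitochondria, with no such name listed for MRPS24 and MRPS28. The pair was at the same boundary in 24 of 26, 17 of 18 and 30 of 31 of these classes. Their median H3K4me3 scores were 68.7, 71.6 and 63.0, and their median H3K27ac scores 30.1, 30.5 and 30.2. H3K4me1 anywhere in the gene was found in 11 of 26 universal, 1 of 18 bacterial and 9 of 31 mitochondria-specific members, whose median gene lengths were 10760, 5434 and 9678 bp; the part of length in this was not tested.

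The score of a summit is the authors' −log10 of a p-value or q-value, and it ranks summits within 1 list. Among genes with H3K4me3 at a boundary, the best score of the mitochondrial ribosomal protein genes had its quartiles at 55.7 and 79.8 around a median of 66.0, against quartiles of 29.9 and 69.3 around a median of 52.1 in all 11340 marked protein-coding genes. Of the 74 marked members, 61 were above that median of all marked genes, 32 were above the upper quartile and 2 below the lower quartile. For H3K27ac the members' quartiles were 23.0 and 44.0 around a median of 30.1, against 15.6 and 49.8 around the same median in all 10806 marked genes. Of the 76 marked members, 37 were above that median, 17 above the upper quartile and 10 below the lower quartile. Among genes with the mark at a boundary, the members thus stood high by H3K4me3 score and in the middle by H3K27ac score. Over all summits of a list the median score was lower, 8.23 for H3K4me3 and 8.40 for H3K27ac. Scores repeat within a list, and 6 members shared the H3K4me3 score of 64.4 while 6 shared the H3K27ac score of 30.1.

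**Figure D2:**
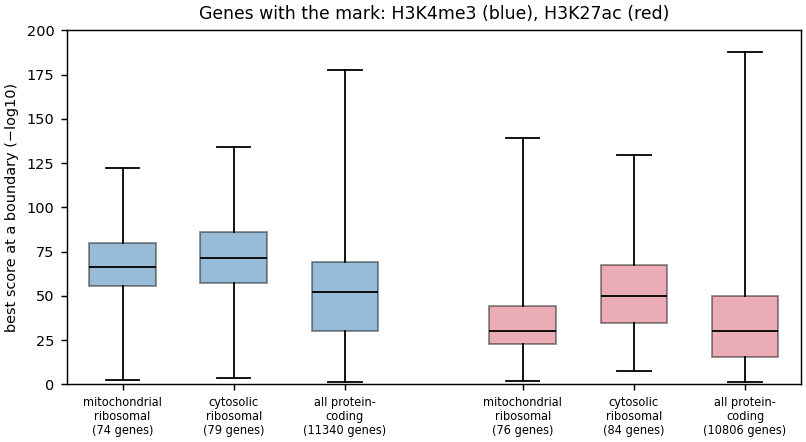
Best summit score (−log10) within 1000 bp of a boundary in genes that have the mark, for mitochondrial ribosomal, cytosolic ribosomal and all protein-coding genes; boxes span the quartiles with a line at the median, and whiskers reach the lowest and highest gene. H3K4me3 medians are 66.0, 71.3 and 52.1, and H3K27ac medians 30.1, 50.1 and 30.1.

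MRPL12, the counterpart of the bacterial stalk protein that recruits translation factors, had the highest H3K4me3 score at a boundary, 122, beside an H3K27ac score of 56.2. MRPS7, a universal protein of the small subunit head, followed at 110 and had the highest H3K27ac score of all members, 139. MRPL9, which has a bacterial counterpart, reached 105 in H3K4me3 score and 51.0 in H3K27ac score. The mitochondria-specific MRPL42 and MRPL38 completed the highest 5, with H3K4me3 scores of 98.9 and 96.7 and H3K27ac scores of 78.9 and 36.6. After MRPS7, the highest H3K27ac scores were those of MRPL27, a protein near the peptidyl transferase centre (102), of MRPL46 and MRPS11, which share their promoter (94.5 each), and of MRPS18B (88.7). MRPS7 was the only gene among the highest 5 of both marks. Of the highest 5 by H3K4me3, MRPL12, MRPS7 and MRPL38 are on chromosome 17, MRPL9 on chromosome 1 and MRPL42 on chromosome 12. The part of chromosome in the high and low scores was not tested.

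At the low end, MRPL24 had the lowest scores of both marks at a boundary, 2.51 for H3K4me3 and 2.16 for H3K27ac, and these lay at different boundaries. The next lowest H3K4me3 scores were 25.5 at MRPL57 and 31.1 at MRPS31, both on chromosome 13, 38.1 at MRPS27 on chromosome 5 and 39.3 at MRPS15 on chromosome 1. The next lowest H3K27ac scores were 5.37 at MRPS18A, 8.46 at MRPL19, 8.50 at MRPS21 and 9.51 at MRPL55. The H3K4me3 scores of these 4 genes were 58.1, 75.9, 43.2 and 65.8, so a low H3K27ac score did not go with a low H3K4me3 score in MRPL19, which was above the upper quartile of all genes. Over the 73 members with both marks at the same boundary, the scores of the 2 marks had a Spearman rank correlation of 0.37, against 0.43 over the 9459 protein-coding genes with both; the points share libraries and, for some, a summit.

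**Figure D3:**
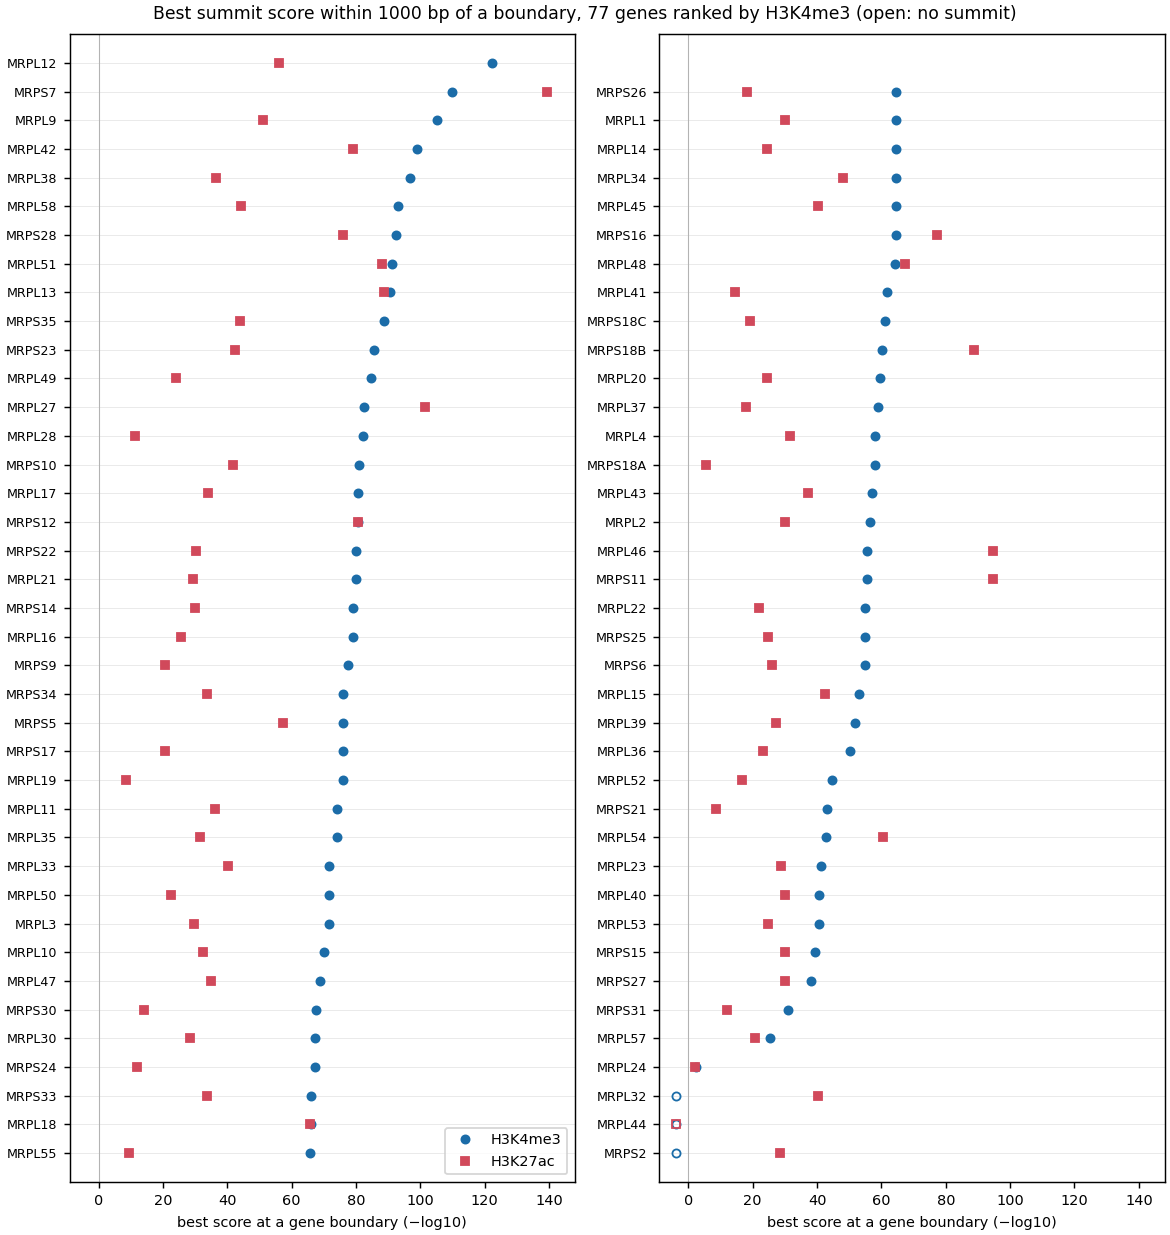
Best H3K4me3 (circles) and H3K27ac (squares) summit score, as −log10, within 1000 bp of a boundary for each of the 77 genes, ranked by H3K4me3 from MRPL12 (122) down; open symbols left of 0 mark no summit. H3K4me3 declines from MRPL12 to MRPL57 (25.5) while H3K27ac scatters between 5.37 and 139 above MRPL24, and MRPL32, MRPL44 and MRPS2 have no H3K4me3 at a boundary.

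The genes that lacked a mark at a boundary had it near a start inside the gene or at the neighbour's side of a common promoter. MRPL44, whose protein has a ribonuclease III-like fold, has its listed start 6609 bp inside the outer boundary of the annotated gene. An H3K4me3 summit of 56.5 lay 119 bp downstream of that start and an H3K27ac summit of 19.3 lay 131 bp downstream. MRPL24, a universal protein of the large subunit, has its listed start 1628 bp inside the boundary, and summits of 103 for H3K4me3 and 68.1 for H3K27ac lay 311 and 119 bp downstream of it. By its listed start MRPL24 was therefore among the highest members and not the lowest. MRPS2, a small subunit protein, had an H3K27ac summit of 28.4 at 888 bp from a boundary and an H3K4me3 summit of 56.5 at 1073 bp, which is 356 bp downstream of its second listed start.

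MRPL32, a large subunit protein with a bacterial counterpart, was the gene with H3K27ac and no H3K4me3 by every rule used except the 2500 bp window. Its H3K27ac summits scored 40.2 at 368 bp upstream of the start and 17.7 at 151 bp downstream. The nearest H3K4me3 summit, 77.6, lay 1092 bp upstream, on the side of PSMA2, a proteasome subunit gene whose start is 202 bp away in the opposite direction. MRPL36, also with a bacterial counterpart, has its listed start 1597 bp inside the boundary. Its boundary H3K4me3 of 50.3 lay 95 bp from that boundary, beside NDUFS6, which encodes a subunit of respiratory complex I. At the listed start it had H3K27ac of 19.3 at 140 bp downstream and no H3K4me3 within 1000 bp. In MRPL34 the outermost start had weak summits of 8.32 for H3K4me3 and 10.8 for H3K27ac, while the innermost of its listed starts, 13299 bp further in, had 64.4 and 47.9 at 104 and 102 bp downstream. Just outside the 1000 bp window for H3K4me3 were MRPS2, with a second, weak summit of 5.30 at 1017 bp from its other boundary, and MRPL32 at 1092 bp.

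H3K4me1 was seldom next to the start of these genes. Scores of the 8 genes with a boundary summit were 7.19 at MRPL50, 4.58 at MRPL4, 3.78 at MRPL38, 3.77 at MRPS18A, 3.63 at MRPL24, 2.91 at MRPS35, 2.75 at MRPS12 and 2.67 at MRPS7. Their median was 3.70, against 4.75 in the 2486 protein-coding genes with H3K4me1 at a boundary. In all of the 8 except MRPL24 the summit was at the boundary away from the start. That is 7 of the 69 members with a listed start (10.1%), near the 8.06% of all genes with a listed start. Over the 58 members with a single listed start, the H3K4me1 summit nearest to the start was at a median distance of 18830 bp, against 15844 bp in the 6807 single-start genes with H3K4me3 at the start, and it was within 1000 bp in 1.72%, against 5.23%. Inside the gene or within 1000 bp of it, 22 of the 77 members had H3K4me1 (28.6%), against 40.4% of all protein-coding genes, with the highest scores at MRPS28 (12.0), MRPL23 (11.1) and MRPL42 (10.5). The median gene length was 8618 bp in members and 24190 bp in all protein-coding genes, and the part of length was not tested.

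H3K4me3 and H3K27ac summits sat mostly just downstream of the start. In the 58 members with a single listed start, the best H3K4me3 summit within 1000 bp was downstream in 48 of 56 genes (85.7%), at a median of 163 bp with quartiles of 108 and 366 bp, against 79.3% and a median of 202 bp in all single-start genes. The best H3K27ac summit was downstream in 36 of 58 (62.1%), at a median of 119 bp, against 62.4% and 127 bp. The distance between the best summits of both marks had a median of 316 bp in members, against 335 bp, and was within 250 bp in 26 of 56 members (46.4%), against 41.9%. These positions differed little from those of other marked genes. Members without an opposite-strand neighbour had H3K4me3 downstream in 40 of 42 genes (95.2%), against 83.9%, and H3K27ac downstream in 33 of 43 (76.7%), against 67.2%.

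**Figure D4:**
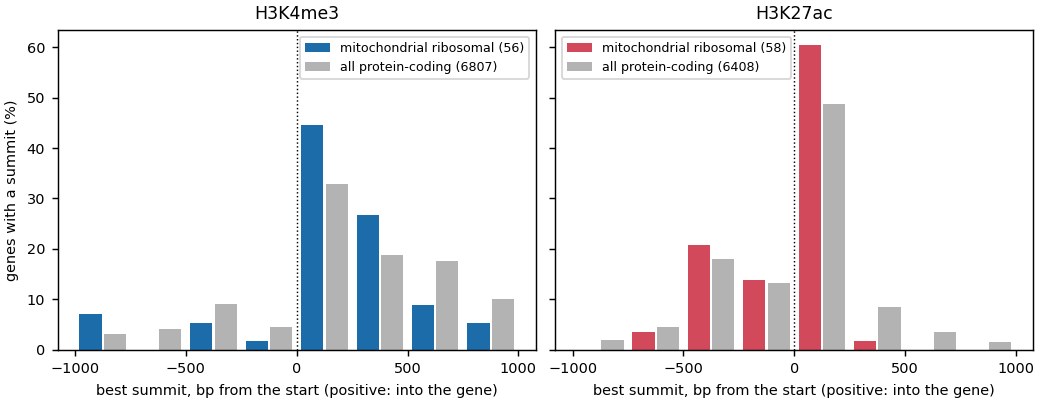
Position of the best H3K4me3 (left) and H3K27ac (right) summit relative to the start, in bp and in bins of 250 bp, as a percentage of single-start genes with a summit within 1000 bp, for mitochondrial ribosomal protein genes and all protein-coding genes. H3K4me3 summits lie downstream of the start in 85.7% of the mitochondrial ribosomal genes and 79.3% of all genes, and H3K27ac summits in 62.1% and 62.4%.

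Many of these genes shared a marked boundary with another gene, and some faced it across a common promoter. A summit of H3K4me3 or H3K27ac lay within 1000 bp of a boundary of the member and of another protein-coding gene in 39 of 77 members (50.6%, 39.7 to 61.5), against 19.5% of all protein-coding genes. The count takes either end of a gene and needs a summit, and 35.2% of all protein-coding genes had no mark at a boundary. By member and partner, 20 combinations had opposite-strand starts facing apart, 3 overlapped on opposite strands and 9 ran on the same strand. Another 2 were placed otherwise and 9 had no listed strand. A start on the opposite strand within 1000 bp upstream was listed for 20 of 69 members (29.0%), against 17.7% of genes with H3K4me3 at a start and 12.3% of all. These 20 members form 19 gene pairs, because MRPL46 and MRPS11 face each other. Their starts were 45 to 990 bp apart with a median of 206 bp, and 13 of the 20 were within 250 bp.

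MRPS7 and GGA3, which encodes an adaptor of Golgi vesicles, had their starts 273 bp apart and shared summits of 110 for H3K4me3 and 139 for H3K27ac. MRPL51 and NCAPD2, a condensin subunit gene, were 840 bp apart and shared summits of 91.2 and 88.1. MRPL49 and FAU, which encodes a protein of the cytosolic small ribosomal subunit, were 49 bp apart and shared 84.8 and 24.2. MRPL27 and EME1, a subunit gene of a DNA endonuclease, were 45 bp apart and shared 82.5 and 102. MRPS12, the decoding-centre protein, and SARS2, the mitochondrial seryl-tRNA synthetase, were 181 bp apart and shared 80.6 for each mark. Both products of that last pair act in mitochondrial translation.

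The rest of the 10 shared boundaries with the highest H3K4me3 scores had other arrangements or no listed strand. MRPL9 and OAZ3, an ornithine decarboxylase antizyme gene, overlapped with starts 16 bp apart and shared 105 for H3K4me3 and 51.0 for H3K27ac, and MRPS34 and EME2 overlapped with 75.9 and 33.6. MRPL28 and PGAP6 run on the same strand, with 82.3 and 11.2. For MRPL13 and MTBP the scores were 90.7 and 88.6, and for MRPL21 and IGHMBP2, a helicase gene, 80.0 and 29.5, with no strand listed for a start of the pair. The share of partners with mitochondrial products was not counted. Further partners with such products were picked out after their values were seen. Among them were TWNK, the mitochondrial DNA helicase, beside MRPL43 (57.2 and 37.3), NDUFB5, a complex I subunit, beside MRPL47 (68.7 and 34.9), NDUFS6, another complex I subunit, beside MRPL36 (50.3 and 23.2), and PTCD2 beside MRPS27 (38.1 and 30.1).

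At these divergent pairs the summits did not favour the ribosomal gene. The best H3K4me3 summit lay beyond the partner's start in 11 of the 20 members, beyond the member's own start in 7 and between the starts in 1, while MRPS2 had none in range. The best H3K27ac summit lay on the partner's side in 9, between the starts in 6 and on the member's side in 5. In single-start divergent members the best H3K4me3 summit was downstream of the member's start in 8 of 14 (57.1%), against 56.5% of divergent protein-coding genes, and H3K27ac in 3 of 15 (20.0%), against 41.8%. At MRPL46 and MRPS11 the H3K27ac summit of 94.5 lay between the starts, 193 bp upstream of MRPL46 and 127 bp upstream of MRPS11, and the H3K4me3 summit of 55.5 lay 469 bp into MRPL46. For a pair with 1 summit, the mark cannot be told apart between the 2 genes.

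**Figure D5:**
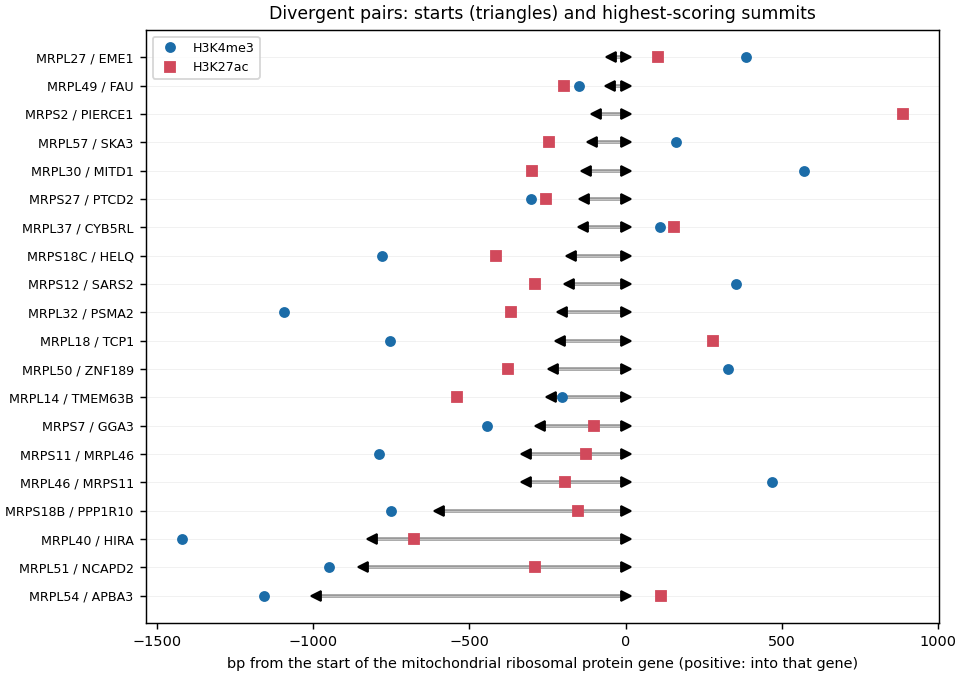
Members with an opposite-strand start within 1000 bp upstream, drawn in bp from the member's start (right triangle at 0) with the partner's start as the left triangle and the highest-scoring H3K4me3 (circle) and H3K27ac (square) summits. Start-to-start distances run from 45 bp at MRPL27 to 990 bp at MRPL54, and the H3K4me3 circle lies beyond the partner's start in 11 of the 20 members.

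The DNA between the starts of such pairs differed in the motifs it held, and a few intervals are printed to show this. The interval between MRPS12 and SARS2 holds 4 copies of CCAAT in the same orientation, that between MRPS27 and PTCD2 holds 1, and that between MRPL32 and PSMA2 holds 1 on the other strand, all in capitals. Each runs toward the start of the ribosomal gene.
MRPS12, chr19:38930764-38930943, plus strand: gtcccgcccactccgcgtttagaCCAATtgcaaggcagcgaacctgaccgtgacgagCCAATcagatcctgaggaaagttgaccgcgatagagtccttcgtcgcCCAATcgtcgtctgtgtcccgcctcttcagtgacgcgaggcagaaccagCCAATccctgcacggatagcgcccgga
MRPS27, chr5:72320241-72320372, minus strand: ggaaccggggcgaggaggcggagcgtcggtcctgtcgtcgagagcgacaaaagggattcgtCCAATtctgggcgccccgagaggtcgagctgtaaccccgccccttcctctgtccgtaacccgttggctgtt
MRPL32, chr7:42932175-42932375, plus strand: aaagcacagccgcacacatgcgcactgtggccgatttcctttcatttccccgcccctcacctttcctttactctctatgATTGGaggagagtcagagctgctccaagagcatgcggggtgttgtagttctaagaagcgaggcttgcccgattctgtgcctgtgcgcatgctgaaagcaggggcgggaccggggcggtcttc

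Upstream of MRPL27, as far as the start of EME1, and of MRPL43, as far as the boundary of TWNK, the intervals are short, and each holds an ETS match, in capitals, close to the start of the ribosomal gene. The best summits near these 44 bases of MRPL27 were 82.5 for H3K4me3 and 102 for H3K27ac, at 385 and 103 bp into that gene.
MRPL27, chr17:50373185-50373228, minus strand: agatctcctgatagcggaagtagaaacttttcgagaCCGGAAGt
MRPL43, chr10:100987498-100987542, minus strand: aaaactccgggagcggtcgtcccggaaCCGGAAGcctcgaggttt

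NRF1 matches, in capitals, stand in the promoters of MRPL17 and MRPL57, and the interval upstream of MRPS11, toward MRPL46, holds none of the 10 motifs searched. MRPL17 had H3K4me3 and H3K27ac scores of 80.7 and 34.0, MRPL57 had 25.5 and 20.6, and MRPS11 had 55.5 and 94.5.
MRPL17, chr11:6683341-6683590, minus strand: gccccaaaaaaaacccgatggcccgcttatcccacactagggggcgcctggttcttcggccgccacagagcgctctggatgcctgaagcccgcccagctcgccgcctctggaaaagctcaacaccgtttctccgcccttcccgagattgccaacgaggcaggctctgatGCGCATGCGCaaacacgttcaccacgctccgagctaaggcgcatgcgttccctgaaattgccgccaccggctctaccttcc
MRPL57, chr13:21176553-21176657, plus strand: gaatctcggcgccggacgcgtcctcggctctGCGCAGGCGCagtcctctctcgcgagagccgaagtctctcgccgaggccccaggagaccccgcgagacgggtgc
MRPS11, chr15:88467458-88467707, plus strand: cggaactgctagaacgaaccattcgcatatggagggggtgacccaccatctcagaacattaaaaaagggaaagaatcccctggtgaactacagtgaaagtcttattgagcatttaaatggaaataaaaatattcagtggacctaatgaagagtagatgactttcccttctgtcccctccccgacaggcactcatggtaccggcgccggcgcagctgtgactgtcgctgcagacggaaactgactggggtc

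Among members with H3K4me3 at any listed start, those with an ETS match had a median best score of 67.2, against 65.1 without one. Those with AAGATGG had 67.7, against 65.1. The ranges overlapped almost completely, with 31.1 to 96.7 with an ETS match and 25.5 to 122 without. ETS matches were in 17 of 42 MRPL and 12 of 27 MRPS promoters, and AAGATGG in 14 of 42 and 9 of 27. Among members with a divergent partner, 7 of 20 had an ETS match, against 22 of 49 without a partner, whereas over all protein-coding genes the shares were 27.1% and 12.4%. For AAGATGG the counts were 9 of 20 and 14 of 49, and over all genes 9.46% and 5.97%.

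Distal sites, H3K27ac summits with H3K4me1 within 1000 bp and over 2500 bp from every gene boundary, were each given to whichever protein-coding gene had its boundary nearest. At least 1 fell to 16 of 77 members (20.8%), against 29.9% of all protein-coding genes, whose median length is 24190 bp, against 8618 bp in members. The 16 genes had 45 sites, 17 of them inside the gene. MRPL14 had 11 of them, 48987 to 102604 bp away, with an H3K27ac score of up to 50.9. MRPS35 had 4, all inside the gene and scoring up to 38.9. MRPL23, MRPL45, MRPS18A, MRPS27 and MRPS28 had 3 each. Single sites of high score were 109 at 4223 bp from MRPL24 and 79.3 at 18616 bp from MRPL33. Proximity does not show which gene a site acts on.

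Cytosolic ribosomal protein genes, 87 by symbol, had H3K4me3 at a boundary in 79 (90.8%) and H3K27ac in 84 (96.6%), beside 96.1% and 98.7% in the mitochondrial ribosomal protein genes. Both were at the same boundary in 86.2%, beside 94.8% in the mitochondrial ones and 47.4% of all protein-coding genes. Over the whole gene with 1000 bp on either side, both were in 85 of 87 cytosolic genes (97.7%). The mitochondrial count was 76 of 77 (98.7%), and the share of all protein-coding genes was 61.2%. The cytosolic symbol pattern also admits symbols with an L after the number. H3K4me1 was at a boundary of 19 cytosolic genes (21.8%), against 8 mitochondrial ones (10.4%) and 12.4% of all protein-coding genes. At a listed start it was found in 2 of 69 cytosolic and 1 of 69 mitochondrial genes, against 7.6% of all genes with a listed start. At the boundary away from the start it was found in 15 (21.7%) and 7 (10.1%) of these, against 8.06% of all genes with a listed start. The median H3K27ac score was 30.1 in mitochondrial and 50.1 in cytosolic genes, and the median H3K4me3 score 66.0 and 71.3. Neither difference was tested.

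Genes that act with the mitochondrial ribosome were marked in like shares. Over all protein-coding genes, 56.8% had H3K4me3 and 54.1% had H3K27ac at a boundary. Of 5 mitochondrial ribosome proteins with other symbols, 4 had H3K4me3 and 5 had H3K27ac at a boundary. DAP3, a GTP-binding small subunit protein, lacked H3K4me3 there and had it at a listed start inside the gene, at 124, with an H3K27ac score of 151.5, and PTCD3 had 90.9 and 51.7. Of 20 translation factors and related genes, all 20 had H3K4me3 and 19 had H3K27ac, with the highest H3K4me3 scores at LRPPRC (94.6), which stabilises mitochondrial messenger RNAs, and MTRFR (88.4), a ribosome rescue factor. MIEF1 was the one without H3K27ac at a boundary, and its H3K4me3 scored 4.36 at a boundary and 50.3 at a listed start.

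Of 29 genes of ribosome assembly and ribosomal RNA modification, 26 had H3K4me3 and 28 had H3K27ac at a boundary, with the highest H3K4me3 scores at PTCD1 (119) and TFB2M (96.0). The all-gene shares for this paragraph are again 56.8% and 54.1%. NOA1, GRSF1 and MRM1 lacked H3K4me3 at a boundary, and inside the gene or within 1000 bp of it they had 58.1, 58.1 and 74.2. Of 15 genes of mitochondrial transcription and its nuclear regulators, all 15 had H3K4me3 and 14 had H3K27ac, the highest H3K4me3 scores being those of TFB2M (96.0) and TEFM (90.6), the transcription elongation factor. The H3K4me3 score of MYC was 2.07 at a boundary and 124 at best inside the gene or within 1000 bp of it. GABPA and YY1, which bind the ETS and AAGATGG motifs, had H3K4me3 scores of 50.3 and 64.4 and H3K27ac scores of 78.9 and 43.3. The coactivator gene PPARGC1A had H3K4me3 of 22.8 and no H3K27ac summit in the gene.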

How the data were processed

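Each mark was measured in 1 ChIP-seq library. The authors deposited 1 list of 1 bp summits per mark, with a score that is the −log10 of a q-value or a p-value; the choice between them, the tool versions and settings, and any use of the input as a control were not given in the sources used here. Bowtie, Picard, deepTools and MACS2 and the hg38 build are named in the submitters' processing notes. There were 46078 H3K4me3, 70028 H3K27ac and 86366 H3K4me1 summits on chromosomes 1 to 22 and X; 185, 273 and 61 elsewhere were left out. The scores come from single libraries of unknown depth, which limits their precision, so no test was run.

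Gene boundaries and listed starts came from RefSeq on GRCh38.p14. Python 3.11.15, numpy 2.4.6, pandas 2.3.3, scipy 1.17.1, statsmodels 0.14.6 (Wilson intervals) and matplotlib 3.10.9 were used, and the counting was tested on simulated summits. The members and lists were chosen with earlier results of these data known. Named genes were the members lacking a mark, those with H3K4me1 at a boundary, those with both marks only at different boundaries, the 5 highest and lowest by each score, the 5 with most distal sites (5 tied at 3, all named), the 10 shared boundaries of highest H3K4me3 score, and, in the other lists, genes without H3K4me3 and the 2 highest. Ribosomal S6 kinase genes and RPS19BP1 met the symbol pattern of the cytosolic list and were left out. The summit positions, divergent starts and repeated scores were added after seeing the data. Alternatives were windows of 500 and 2500 bp, a score of at least 10, the whole gene and listed starts, and, for distal sites, distances of 1000 and 5000 bp from a boundary and 500 bp between marks.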

Additional observations from a re-analysis of the deposited data

How the results depend on the processing

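Of the 31 recounts under other settings, 22 stayed within 1.5 times the reported count. H3K4me1 at a boundary was the least stable count: 8 members (against 12.4% of all protein-coding genes) became 4 of 77 at 500 bp (7.32% of all), 18 at 2500 bp (24.9%), 0 with a score of at least 10 (1.13%), 22 over the whole gene (40.4%) and 1 of 69 at listed starts (7.6%). With a score of at least 10 in every list, 2 members had no mark at a boundary, against 42.4% of all protein-coding genes. With every score kept, 0 members had none over the whole gene or at listed starts, and the all-gene share was not counted. Distal sites numbered 19 in place of 45 with an H3K27ac score of at least 10. The pair of marks at the same boundary was counted in 59 of 77 members at 500 bp, against 31.1% of all protein-coding genes, in 76 at 2500 bp, against 55.8%, and in 69 with a score of at least 10, against 40.3%. H3K4me3 was at a boundary of 60 members at 500 bp, against 40.6%. Members sharing a marked boundary numbered 28 at 500 bp and 48 at 2500 bp. For sharing and for distal sites, these recounts were not made over all protein-coding genes. No paired analysis was possible because each mark had 1 library and the result comes from no test. Summit lists without widths or read counts show where a peak is highest and not how far it reaches, and the unknown depth limits what a missing summit can show.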
